A study of Homo sapiens with 6 samples.

Results

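Polyamine synthesis and turnover was followed through 10 genes in RNA sequencing libraries of human neuroblastoma cells: *ODC1*, *AMD1*, *SRM* and *SMS* for synthesis, *OAZ1*, *OAZ2* and *AZIN1* for control of ornithine decarboxylase, and *SAT1*, *SMOX* and *PAOX* for acetylation and oxidation. The genes were chosen by symbol, and all 10 were found among the 60651 genes of the tables. Of these 10 genes, 8 had enough counts to be tested, among 22443 genes tested in all. *SMOX* and *PAOX* did not.

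Total RNA was depleted of ribosomal RNA and sequenced in 6 libraries, 3 with titles ending in EtOH and 3 with titles ending in Tet, where the protocol text gives 5 days of tetracycline in the medium. The cell model is uncertain, since the labels disagree: titles read IMR575, which is the *MYCN*-amplified neuroblastoma line IMR-5/75, a knockdown tag read Control for EtOH and Induction for Tet, and the protocol and design texts gave SK-N-SH cells, grown as single clones under G418 and blasticidin, in which tetracycline switches on a stably transfected *MYCN* expression construct through the tetracycline repressor. The study describes SK-N-AS cells of that kind as well as IMR-5/75 cells in which an shRNA against *MYCN* can be induced. Groups were therefore taken from the titles, libraries are called by their label, and no direction of *MYCN* was assumed. Nothing in the labels says that the 3 libraries of a group came from separate cultures, while the study's methods describe its cell culture experiments in general as independent biological replicates. If the libraries were not separate cultures, p-values measure technical spread only.

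Polyamines (putrescine, spermidine and spermine) are small cations that bind nucleic acids and are needed for growth. Ornithine decarboxylase, encoded by *ODC1*, makes putrescine from ornithine. The S-adenosylmethionine decarboxylase encoded by *AMD1* supplies the aminopropyl groups that spermidine synthase (*SRM*) and spermine synthase (*SMS*) add in turn. Antizymes (*OAZ1*, *OAZ2*) bind ornithine decarboxylase and send it to the proteasome, and the antizyme inhibitor *AZIN1* takes antizyme away from it. The acetyltransferase encoded by *SAT1* starts back-conversion and export, with the acetylpolyamine oxidase *PAOX*, while *SMOX* oxidises spermine directly. *ODC1* is a textbook target of MYC proteins, which bind the E-box CACGTG, and *MYCN* is the member of that family amplified in part of neuroblastomas.

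The sequences below show the E-boxes near the starts of *ODC1* and *SRM*, in capitals, because the libraries were made around *MYCN*. The *ODC1* stretch (GRCh38, chr2:10447990-10448053, minus strand) lay in an intron of the exon models in the files, and the *SRM* stretch (chr1:11060200-11060229, minus strand) lay upstream of the gene.
*ODC1*: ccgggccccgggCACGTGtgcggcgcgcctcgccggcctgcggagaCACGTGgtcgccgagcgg
*SRM*: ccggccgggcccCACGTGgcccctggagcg
The letters CACGTG, which read the same on both strands, were searched in RefSeq promoter windows of 300 bases (GRCh38.p14). They occurred in 2548 of 35116 windows (7.26%). The table held 10 windows for 7 of the 10 genes, and 2 of these windows, 1 of *ODC1* and 1 of *SRM*, had the letters. A match is a description of the sequence and not evidence of binding.

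The antizyme messages carry the site at which ribosomes shift frame when polyamines are plentiful, and the stop codon passed over is TGA. This site is shown because *OAZ1* and *OAZ2* are compared below, with the last sense codon and the stop codon in capitals. Both stretches were exonic, at chr19:2271428-2271457 on the plus strand for *OAZ1* and at chr15:64691501-64691530 on the minus strand for *OAZ2*.
*OAZ1*: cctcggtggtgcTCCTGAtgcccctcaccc
*OAZ2*: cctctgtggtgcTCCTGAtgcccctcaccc
Over these 30 bases the genes differed at 1 position, G5T, counted from the 5′ end with the base of *OAZ1* first. Counts of RNA carry no information on frameshifting.

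The libraries held between 27933378 and 40498065 counts, with no detectable difference between groups (p = 0.4 by an exact permutation test, two-sided, which cannot go below 0.1 with 3 libraries against 3), and 3 counts corresponded to between 0.0741 and 0.107 CPM (counts scaled to a library total of 1e+06). *MYCN*, the gene the experiment was built on, was at 158, 256 and 156 CPM in the libraries labelled EtOH and at 197, 200 and 145 CPM in those labelled Tet. The groups overlapped, and the difference was -0.07 on the log2 scale (SE 0.23, edgeR quasi-likelihood adjusted p = 0.956). *MYCN* RNA therefore did not separate the labels. The study checked MYCN protein by western blot in both of its inducible cell models, and RNA libraries do not measure protein. Of 12 noradrenergic neuroblastoma markers 10 were tested and 1, *DDC*, was past the threshold (log2 fold change 3.55, edgeR adjusted p = 0.0280), beside 0.236% of all genes tested. DESeq2 called 4 of these markers, where it called 282 genes higher and 203 lower among 40463 in all. In edgeR 7 had an unadjusted p under 0.05, beside 2417 of all 22443 genes tested. *DDC* was past the threshold in 1 of 6 fits that left out a library. The groups did not overlap for 7 of the 10, beside 17.5% of all genes tested. The list had a median of 1.11 and a summed level of 633 to 716.8 CPM in EtOH and 744.4 to 885.5 CPM in Tet. The enzyme markers *TH* and *DBH* were at or near 0, with *TH* at 0 in 5 libraries. Both are GC-rich (66.8% and 61.5%), and levels fell with GC content, as given below. Mesenchymal markers summed to 145.2 to 267.9 CPM in EtOH and 133.8 to 179.3 CPM in Tet, with *COL1A2* at 0. Of 10, 8 were tested, with 0 past the threshold in the main edgeR fit and limma-voom and 1 in DESeq2. In the main fit 2 had an unadjusted p under 0.05, in opposite directions (*COL3A1* at 1.03 and *PRRX1* at -1.02 on the log2 scale). The groups did not overlap for 4 of the 8, beside 17.5% of all genes tested. Endothelial markers summed to at most 0.753 CPM (0 of 5 tested) and immune markers to at most 1.61 CPM (1 of 5 tested, not past the threshold, *CD3E* and *CD79A* at 0).

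One library and one property of the genes touch several values below. EtOH replicate 2 stood apart from the other EtOH libraries, with 4.003 times their mean *OAZ1* level and 2.32 times their mean *AMD1* level in TMM-normalised CPM. In all libraries levels fell with the GC content of exons. The median level of protein-coding genes, in TPM (a level per exon length, scaled to the same total in each library), was 22.56 in 2932 genes with under 40% GC and 0.1419 in 2754 genes with over 60% GC. The ratio of these classes was between 161 and 309 in the EtOH libraries and was 234, 296 and 67.9 in Tet replicates 1, 2 and 3, so the gap was smallest in Tet replicate 3.

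**Figure D1:**
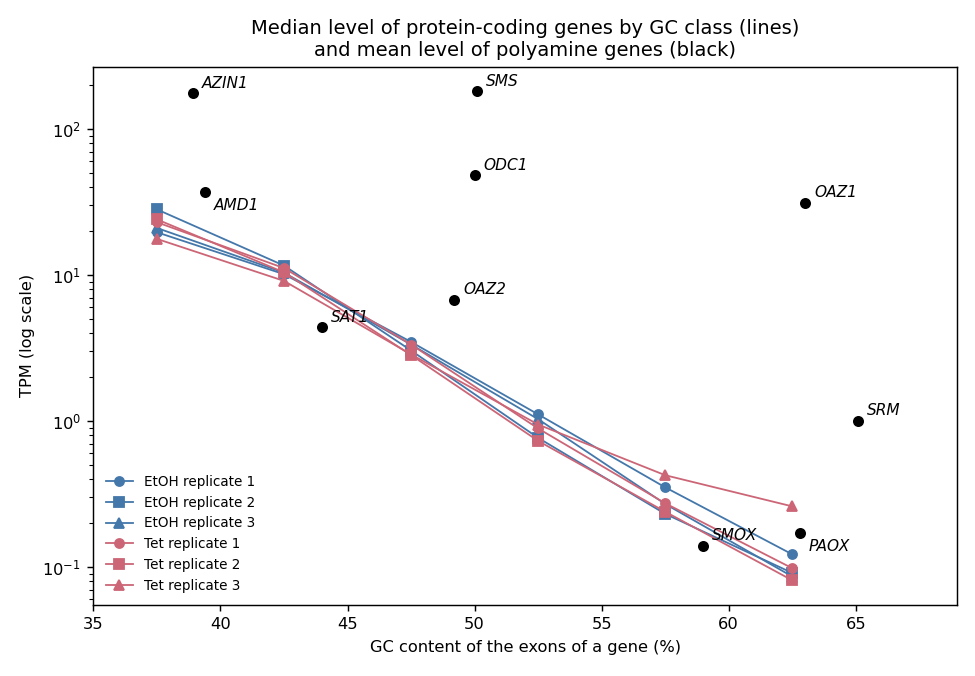
Level against exon GC content. Points are the mean TPM of the 10 polyamine genes (log axis) and each of the 6 lines is the median TPM of protein-coding genes by GC class in 1 library, the outer classes (under 40% and over 60%) being drawn just outside those limits; *OAZ1* and *SMS* lie at 220 and 192 times their class median over all libraries, whereas *SAT1* and *SMOX* lie below theirs.

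Per exon length, spermine synthase and the antizyme inhibitor were the most abundant messages among the 10 polyamine genes. *SMS* had a mean of 181.7 TPM (range over the 6 libraries 144.5 to 246.2) and *AZIN1* a mean of 174.9 TPM (130.6 to 235.7). They overlapped, and *SMS* was above *AZIN1* in 5 of 6 libraries. Then came *ODC1* at 48.1 TPM (38.5 to 56.2), *AMD1* at 37.2 TPM (24.3 to 70.98) and *OAZ1* at 31.2 TPM (13.5 to 60.04), each overlapping with its neighbour. *OAZ2* followed at 6.78 TPM (5.22 to 8.15) and *SAT1* at 4.38 TPM (2.92 to 5.76), with overlapping ranges but with *OAZ2* higher in every library. *SRM* was at 1.004 TPM (0.665 to 1.49), separate from its neighbours on both sides. The oxidases were near the floor, *PAOX* at 0.172 TPM (0 to 0.401) and *SMOX* at 0.140 TPM (0.0362 to 0.250), and could not be ordered.

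These levels need the GC content beside them. *SRM* has 65.1% GC, and its level was above 48.8% of all protein-coding genes but above 87.6% of genes with over 60% GC. *OAZ1*, at 63.0% GC, was above 85.3% of all protein-coding genes and 99.9% of that GC class. *SMS* and *ODC1*, at 50.1% and 50% GC, were above 99.8% and 93.4% of their classes. *AZIN1* and *AMD1* are AT-rich, at 38.9% and 39.4% GC, and were above 96.1% and 63.1% of theirs. *SAT1*, at 44% GC, was above only 39.1% of genes in its class. *PAOX* and *SMOX*, at 62.8% and 59% GC, were above 53.5% and 39.9% of theirs. The position of *SRM* at the low end of the pathway therefore moved when it was set beside genes of like GC content, and the part of GC content in the order was not tested further. The exon length merges all annotated exons, including retained introns, which lowers TPM for genes with many transcript forms such as *OAZ1*.

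None of the polyamine genes tested was called between the labels. By edgeR, 0 of 8 genes were past an adjusted p of 0.05, beside 0.236% of all genes tested (33 higher and 20 lower in Tet). An unadjusted p under 0.05 was found for 0 of 8, beside 2417 of all 22443 genes tested. DESeq2 and limma-voom also called 0. The log2 fold changes, Tet against EtOH, ran from -0.31 to 0.84 with a median of 0.04, beside a median of -0.0061 over all genes tested, and 4 were above and 4 below 0. Adjusted p-values lay between 0.524 and 0.994. In bulk RNA, fewer cells expressing a gene and less RNA per cell cannot be told apart. A p that misses the threshold does not show that a gene was unchanged, and the 95% intervals below give the sizes that were not excluded.

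**Figure D2:**
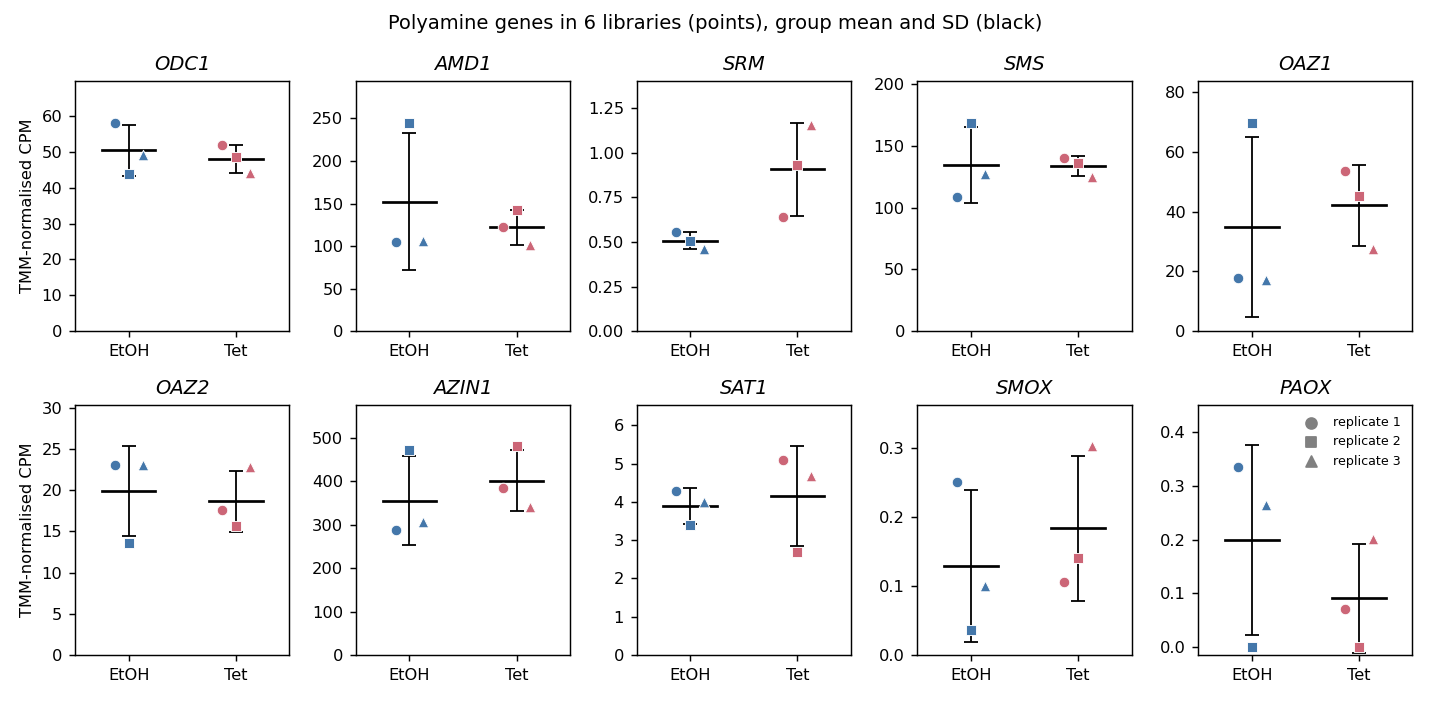
Level of each polyamine gene in each library. The vertical axes are TMM-normalised CPM on a scale of its own for each gene, points are libraries (circle, square and triangle for replicates 1, 2 and 3), and black lines are the mean and SD of 3 libraries; *SRM* is the gene whose groups do not overlap, and EtOH replicate 2 lies far above the other EtOH libraries for *OAZ1* and *AMD1*.

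Among the synthesis enzymes, ornithine decarboxylase differed least between libraries. *ODC1* (ENSG00000115758.13, chr2:10439968-10448327, minus strand, on the same chromosome as *MYCN* and 5.49 Mb from it) was at 58.1, 43.9 and 49.1 CPM in EtOH and at 51.8, 48.5 and 44.016 CPM in Tet. The Tet values all fell inside the EtOH range. The means were 50.4 ± 7.18 and 48.1 ± 3.90 CPM (SD, n = 3 each), and the log2 fold change was -0.07 (SE 0.16, 95% interval -0.44 to 0.30, edgeR adjusted p = 0.939).

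*AMD1* (ENSG00000123505.19, chr6:110874770-110898879, plus strand), which supplies decarboxylated S-adenosylmethionine, was at 105, 245 and 106 CPM in EtOH and at 123, 143 and 102 CPM in Tet. EtOH replicate 2 was the highest library and the other 5 lay close together. The log2 fold change was -0.31 (SE 0.33, 95% interval -1.06 to 0.43, edgeR adjusted p = 0.816) and turned to 0.22 (adjusted p = 0.490) without EtOH replicate 2.

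Spermidine synthase was the gene with the largest difference. *SRM* (ENSG00000116649.10, chr1:11054584-11060020, minus strand) had only 20, 14 and 14 counts in EtOH and 18, 33 and 46 counts in Tet, or 0.558, 0.505 and 0.463 CPM against 0.638, 0.931 and 1.16 CPM. Every Tet library was above every EtOH library, as was the case in one direction or the other for 17.5% of all genes tested, and *SRM* was the 1 polyamine gene of 8 for which it held. The fold was 1.79 (95% interval 0.936 to 3.41), or 0.84 on the log2 scale (SE 0.41, edgeR adjusted p = 0.524). Beside this, the median log2 fold change of the 1047 tested protein-coding genes with over 60% GC was 0.52, and the median level of all such genes was 0.122, 0.091 and 0.086 TPM in EtOH and 0.098, 0.081 and 0.26 TPM in Tet. With a correction for GC content per library, chosen after the data were seen, the log2 fold change of *SRM* was 0.41 (edgeR adjusted p = 0.763, within a range of 0.342 to 0.917 over the 14 alternatives tried).

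*SMS* (ENSG00000102172.16, chrX:21940709-21994837, plus strand), which makes spermine from spermidine, was at 108.6, 168.8 and 127.0 CPM in EtOH and at 140.1, 136.4 and 125.1 CPM in Tet. The Tet libraries lay inside the EtOH range. The means were 134.8 ± 30.9 and 133.9 ± 7.83 CPM (SD, n = 3 each), and the log2 fold change was -0.0098 (SE 0.18, 95% interval -0.43 to 0.41, edgeR adjusted p = 0.994).

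Among the genes that control ornithine decarboxylase, the antizyme *OAZ1* varied most. *OAZ1* (ENSG00000104904.12, chr19:2269509-2273490, plus strand) was at 17.8, 69.8 and 17.1 CPM in EtOH and at 53.7, 45.2 and 27.4 CPM in Tet. EtOH replicate 2 was the highest of the 6 libraries while EtOH replicates 1 and 3 were the lowest, so the Tet libraries all lay between them. The log2 fold change was 0.27 (SE 0.53, 95% interval -0.94 to 1.48, edgeR adjusted p = 0.918). Without EtOH replicate 2 it was 1.28 (adjusted p = 0.0370), which passed the threshold; without EtOH replicates 1 and 3 in turn it was -0.074 and -0.088. The comparison for *OAZ1* therefore rested on EtOH replicate 2, and other genes, *JSRP1* among them, overlap 6.87% of its exon bases and took part of those reads.

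*OAZ2* (ENSG00000180304.14, chr15:64687573-64703281, minus strand), the second antizyme, was at 23.0, 13.6 and 23.0 CPM in EtOH and at 17.5, 15.6 and 22.8 CPM in Tet. Its lowest value came from EtOH replicate 2, where *OAZ1* was highest. The log2 fold change was -0.09 (SE 0.25, 95% interval -0.67 to 0.49, edgeR adjusted p = 0.950). Another gene overlaps 7.22% of its exon bases.

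*AZIN1* (ENSG00000155096.14, chr8:102826308-102893864, minus strand), the antizyme inhibitor, was at 287, 473 and 305 CPM in EtOH and at 384, 480 and 341 CPM in Tet. Replicate 2 was the highest library of each group, and the groups overlapped. The means were 355 ± 102.6 and 402 ± 71.3 CPM (SD, n = 3 each), and the log2 fold change was 0.18 (SE 0.23, 95% interval -0.34 to 0.70, edgeR adjusted p = 0.857). Without EtOH replicate 2 it was 0.45 (adjusted p = 0.170).

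Turnover genes had low levels, which need the GC content given above beside them. *SAT1* (ENSG00000130066.16, chrX:23783173-23786226, plus strand), the acetyltransferase that limits polyamine catabolism, was at 4.30, 3.39 and 4.0002 CPM in EtOH and at 5.10, 2.68 and 4.68 CPM in Tet. The Tet libraries held both the highest and the lowest value. The log2 fold change was 0.09 (SE 0.30, 95% interval -0.60 to 0.78, edgeR adjusted p = 0.959).

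*SMOX* (ENSG00000088826.18, chr20:4120980-4187747, plus strand) had 9, 1 and 3 counts in EtOH and 3, 5 and 12 counts in Tet. *PAOX* (ENSG00000148832.16, chr10:133379261-133391694, plus strand) had 12, 0.5 and 7.5 counts in EtOH and 2, 0 and 8 counts in Tet. Another gene overlaps 61.0% of the exon bases of *PAOX*, so fractions of read pairs were assigned to it. Both genes overlapped between groups (p = 0.5 for each by an exact two-sided permutation test on CPM). At these counts a difference was not detectable.

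**Figure D3:**
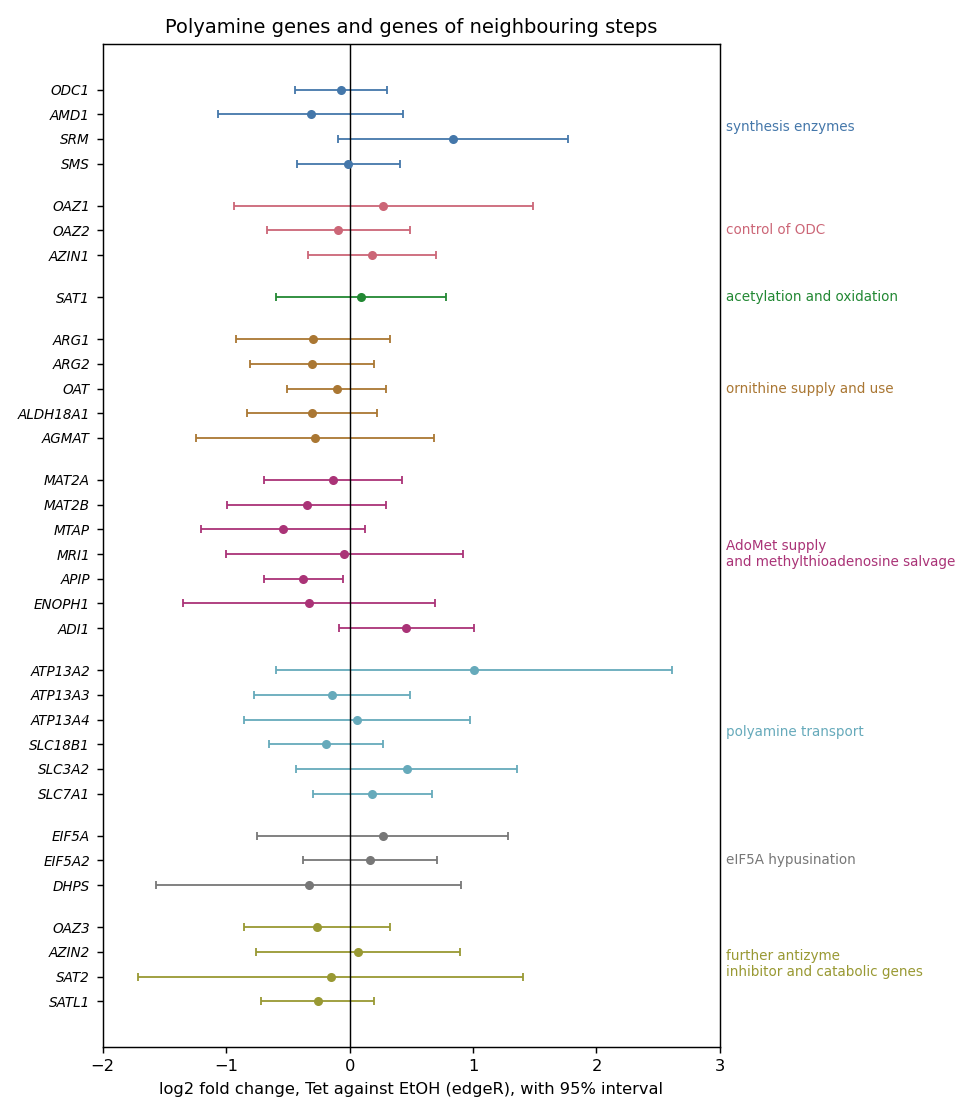
Log2 fold changes, Tet against EtOH, of the 8 polyamine genes tested and of the 25 tested genes of neighbouring steps. Bars are 95% intervals from the edgeR fit of 6 libraries. For the 8 polyamine genes every interval includes 0. Among these 8 the narrowest is that of *ODC1* (-0.44 to 0.30) and the widest that of *OAZ1* (-0.94 to 1.48). Among the neighbouring genes, the interval of *APIP* (-0.69 to -0.057) lies below 0, and some, such as that of *ATP13A2* (-0.59 to 2.61), are wider.

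Ratios within a library do not depend on scaling between libraries and were compared as a description. The log2 ratio of *ODC1* to *OAZ1*, enzyme message to antizyme message, was 2.00, -0.37 and 1.83 in EtOH and 0.25, 0.40 and 0.98 in Tet (means 1.154 ± 1.32 and 0.54 ± 0.39, SD, n = 3 each). The antizyme message exceeded that of the enzyme, per exon length, only in EtOH replicate 2. In counts without division by length it also did so in Tet replicate 1 (1515.67 against 1461 counts). *OAZ1* and *ODC1* also differ in GC content (63.0% and 50%), so the ratio is not a plain balance of messages. The log2 ratio of *OAZ1* to *OAZ2* was 1.68 ± 1.596 in EtOH and 2.30 ± 0.76 in Tet. Per exon length, *OAZ1* was the more abundant antizyme in all 6 libraries, by 1.66 to 11.5-fold. In counts without division by length, *OAZ2* exceeded *OAZ1* in EtOH replicate 1 (824.5 against 639) and in EtOH replicate 3 (695.5 against 516). The EtOH mean log2 ratio was then 0.52.

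*AZIN1* exceeded *OAZ1* in every library, by 3.93 to 10.4-fold, with log2 ratios of 2.86 ± 0.77 in EtOH and 2.51 ± 0.41 in Tet. Here too exon length and GC content (38.9% and 63.0%) differ between the genes. *SMS* exceeded *SRM* by 101 to 313-fold, with log2 ratios of 7.93 ± 0.40 and 7.15 ± 0.51, and these enzymes differ in GC content as given above. The log2 ratio of *AMD1* to *ODC1* was -0.39 ± 0.87 and -0.53 ± 0.19, which rests on exon length (without division by length the EtOH mean turned to 1.48, *AMD1* having more counts than *ODC1*). The log2 ratio of *SAT1* to *SRM* was 2.54 ± 0.18 and 1.78 ± 0.75, and that of *SMOX* to *SAT1* -5.57 ± 1.23 and -4.83 ± 0.87. All 7 ratios overlapped between groups.

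**Figure D4:**
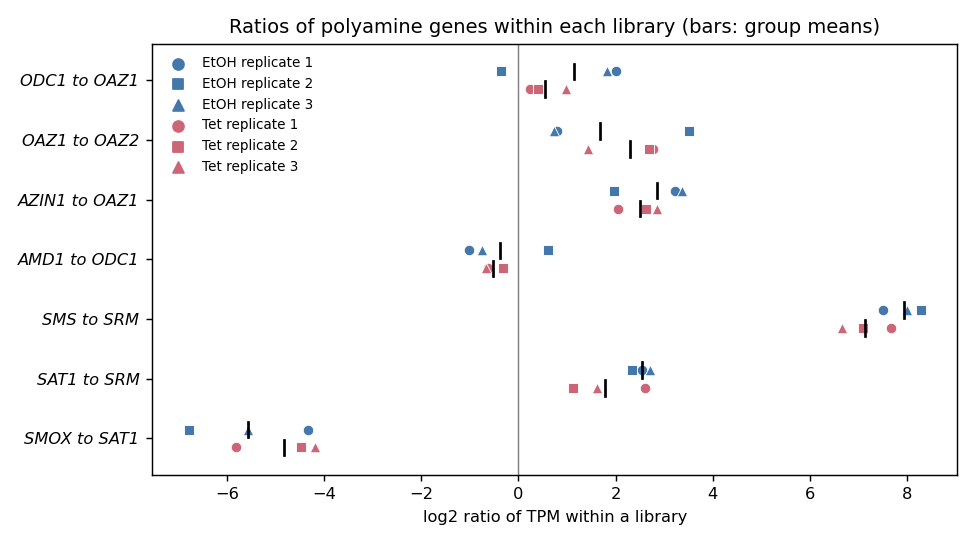
Log2 ratios of TPM between pairs of polyamine genes, 1 point per library, EtOH above Tet, with bars at the group means. The groups overlap for all 7 pairs, and EtOH replicate 2 lies apart from the other EtOH libraries for the pairs that contain *OAZ1* and for *AMD1* to *ODC1*.

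No gene of the wider pathway differed past the threshold. Outside the 10 genes, 33 genes of ornithine supply, S-adenosylmethionine supply and salvage, transport, eIF5A hypusination and further antizyme and catabolic functions were listed, and 25 were tested. By edgeR 0 were past the threshold, beside 0.236% of all genes tested. In the same fit 1 had an unadjusted p under 0.05, beside 2417 of all 22443 genes tested. For these pathway genes limma-voom gave 0 and 1, and DESeq2 0 and 0. Their log2 fold changes ran from -0.54 to 1.01 with a median of -0.154, 17 of them below 0.

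The list of ornithine supply and use had log2 fold changes below 0 in 5 of 5 genes tested, with a median of -0.3. It includes *AGMAT* (-0.28), whose enzyme makes putrescine from agmatine and does not itself make or use ornithine. *ALDH18A1*, which makes the precursor of proline and ornithine from glutamate, was at 45.6, 27.7 and 40.8 CPM in EtOH and at 28.6, 26.01 and 37.8 CPM in Tet, and the groups overlapped (log2 fold change -0.30, edgeR adjusted p = 0.718). The groups also overlapped for the mitochondrial arginase *ARG2* and the aminotransferase *OAT*. *VTI1B* covers 39.6% of the exon bases of *ARG2*.

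S-adenosylmethionine supply and methylthioadenosine salvage had a median of -0.33, with 6 of 7 tested genes below 0. *APIP*, a dehydratase of the salvage pathway that returns methylthioadenosine to methionine, was at 51.2, 52.0 and 55.6 CPM in EtOH and at 40.6, 42.8 and 39.0 CPM in Tet. Every Tet library was below every EtOH library, but its difference of -0.38 on the log2 scale (SE 0.14) had an edgeR adjusted p of 0.379, past 0.05 only before adjustment. *MTAP*, the first enzyme of that salvage, was at -0.54 (SE 0.29, edgeR adjusted p = 0.568), and *ADI1*, a dioxygenase near its end, was the exception in direction at 0.46 (SE 0.24, adjusted p = 0.556). *MAT2A*, which makes S-adenosylmethionine, was at 503, 265 and 433 CPM in EtOH and at 417, 302 and 375 CPM in Tet and was lowest in EtOH replicate 2. The liver form *MAT1A* had 0 counts in all libraries.

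Transport genes had a median of 0.12 (6 of 10 tested). *ATP13A3*, a polyamine transporter of the P5B ATPase family, was the most abundant at 238, 432 and 249 CPM in EtOH and 266, 355 and 210 CPM in Tet, and its groups overlapped. *ATP13A2*, the lysosomal polyamine exporter, had the largest log2 fold change at 1.01 (SE 0.70, edgeR adjusted p = 0.688), from 0.279, 0.361 and 0.298 CPM in EtOH and 0.142, 0.508 and 1.21 CPM in Tet, with Tet replicate 3 the highest and a GC content of 63.5%.

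Spermidine is the donor for hypusine, the modified residue of eIF5A. The hypusination list had a median of 0.16 (3 of 4 tested), with *EIF5A* at 0.27 (SE 0.45, edgeR adjusted p = 0.899) and *EIF5A2* at 0.16 (SE 0.24, adjusted p = 0.880). The further antizyme, inhibitor and catabolic genes had a median of -0.21 (4 of 5 tested).

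Because polyamine synthesis is tied to growth, a proliferation list is given beside these values. All 20 genes were tested and 19 had log2 fold changes below 0, with a median of -0.37. In the main edgeR fit and limma-voom 0 were past the threshold and 4 had an unadjusted p under 0.05. DESeq2 called 2, *AURKA* and *MCM3*. Without EtOH replicate 2, edgeR also called these 2, beside 361 genes higher and 331 lower over all genes. With the replicate number as a block it called them and *CCNB1*, beside 421 genes higher and 254 lower. Over all genes, the main edgeR fit had 0.236% past the threshold and 2417 of 22443 at an unadjusted p under 0.05. DESeq2 called 282 higher and 203 lower among 40463. The summed level was 2248 to 3433 CPM in EtOH and 1939 to 2567 CPM in Tet, which overlapped.

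The genes whose levels followed *ODC1* most closely over the 6 libraries, by the root-mean-square difference of centred log2 CPM among 8231 protein-coding genes of at least 5 CPM, were *ATP5F1A* (0.0381), *M6PR* (0.043) and *WDR59* (0.0435). Those closest to *SAT1* among 8232 genes were *CPT2* (0.0798), *TLE1* (0.0888) and *FGGY* (0.0896). With 6 libraries and a nearly flat *ODC1*, such likeness describes small differences between libraries.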

How the data were processed

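Gene-level values of 6 total RNA libraries, 3 labelled EtOH and 3 labelled Tet, were used. The authors deposited estimated counts per gene. Per the file headers, featureCounts 1.6.4 counted unique alignments over exons, dividing a read pair evenly among overlapping genes and ignoring strand; the submitters' processing notes name STAR 2.7.1a, featureCounts 1.5.1 and GRCh38. Between 12.3% and 14.7% of genes had a value that was not whole. Unstranded counting cannot separate overlapping or antisense genes, so shared exon bases are given for the polyamine genes that have them. For other pathway genes named, the shares were 39.6% (*ARG2*), 12.5% (*MAT2A*), 9.64% (*MTAP*), 9.44% (*ATP13A2*) and 8.98% (*EIF5A*), and lower for the rest. The 92 spike-in rows held no counts and were left out.

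Estimated counts were rounded and tested in R 4.3.3 with edgeR 4.0.16 (filterByExpr, TMM, quasi-likelihood F test, group only, Benjamini-Hochberg over all genes tested, threshold 0.05). The SE is the size of the log2 fold change divided by the square root of F. CPM are TMM-normalised; TPM use the deposited exon lengths. DESeq2 1.42.0 and limma 3.58.1 were alternatives. The edgeR step was tested on simulated data, where most changes of 1 on the log2 scale were missed; the bound for accepting the step was lowered after this was seen. Symbols were found for 60437 of 60651 genes (99.6%). GENCODE 44 gave the same coordinates for 53025 of 53026 identifiers of the same version. GC content was computed over exons on GRCh38.

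The genes, lists and tests were chosen with earlier results of these data known. Named genes were the 10 polyamine genes, the tested genes of 5 pathway lists, *MYCN*, the proliferation and cell type lists, and the 3 genes most like *ODC1* and *SAT1*. The sequences shown and *COL1A2*, *CD3E* and *CD79A* were picked after values were seen.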

Additional observations from a re-analysis of the deposited data

How the results depend on the processing

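Over 14 alternatives the 8 polyamine genes gave 112 comparisons, of which 98 kept direction and call, 13 turned direction and 1 passed the threshold. The number of polyamine genes past the threshold was 0 in all alternatives except without EtOH replicate 2, where it was 1 (leave-one-out range 0 to 1). Calls over all genes moved with the setting. Against 33 higher and 20 lower, RLE size factors gave 13 lower, no filter on low counts gave 185 and 117, DESeq2 gave 282 and 203, and the GC correction added after seeing the data gave 73 and 48. Leaving out 1 library gave 0 to 361 higher and 0 to 331 lower, the high counts coming without EtOH replicate 2 whereas edgeR called 0 in both directions without Tet replicates 1 and 3 (1865 and 2067 genes at an unadjusted p under 0.05) and 0 lower beside 1 higher when EtOH replicate 3 or Tet replicate 2 was left out (1476 and 1956 genes). With the replicate number as a block (paired fit), edgeR called 421 genes higher and 254 lower and 0 polyamine genes. In that fit 3 of 20 proliferation genes, 3 of 10 noradrenergic markers and 2 of 8 mesenchymal markers were past the threshold. For replicates 1, 2 and 3, the EtOH and Tet libraries sharing a number had deviations that correlated at 0.0603, 0.51 and 0.219, all positive. These values were not set beside those of libraries with different numbers, so they do not decide whether the numbers pair the libraries. Whether the libraries were paired was not tested further, and the main fit had no block. The cause of these moves was not tested.

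*SMS* turned to 0.012 with the block and to 0.016 with limma-voom. Leaving out 1 library, log2 fold changes ranged from -0.17 to 0.19 for *SMS*, -0.15 to 0.027 for *ODC1*, -0.55 to 0.22 for *AMD1*, -0.088 to 1.28 for *OAZ1*, -0.30 to 0.025 for *OAZ2*, -0.093 to 0.33 for *SAT1* and -0.22 to 0.21 for *MYCN*, so these turned direction, whereas *SRM* (0.63 to 1.02) and *AZIN1* (0.025 to 0.45) did not. Without division by exon length, the EtOH mean log2 ratio was 3.64 for *AZIN1* to *OAZ1*, 1.48 for *AMD1* to *ODC1*, which turned direction, and 2.94 for *SAT1* to *SRM*. At the counts of *SRM*, *SMOX* and *PAOX*, depth limits what could be detected.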
